A study of Mus musculus with 12 samples.

Results

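The genes described here are 37 members of the pathways that make, desaturate, store and export cholesterol and fatty acids, listed by name out of 55401 gene identifiers in the deposited tables. The list was chosen with earlier results of these data known. They were followed in 12 bulk RNA-seq libraries of mouse CD8 T cells of the OT-I genotype, whose transgenic receptor recognises an ovalbumin peptide, with 3 libraries in each of 4 groups. Day 14 and day 4 cells, which the labels call exhausted, were CD44+ OT-I cells sorted from B78ChOVA melanomas 14 or 4 days after their transfer into C57Bl6/J mice. Effector cells had been stimulated with antigen for 5 days in vitro, and naive cells were taken from the lymph nodes of tumour-free OT-I animals. The OT-I genotype was common to every group, and neither the number of animals or cultures behind a library nor any pooling is given in the sources used here, so p-values measure the spread between these libraries. Effector cells lived in culture and the others in mice, so culture and cell state cannot be told apart between effector and other libraries. All 37 members were matched and all 37 passed the filter on low counts. Fads2, which had no count in naive libraries, could only pass through the groups in which it was higher, and it is counted among the risers below.

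Cells sense their sterols in the endoplasmic reticulum, where SCAP carries the transcription factors SREBP1 and SREBP2 towards the Golgi for cleavage when sterols are low, and INSIG proteins hold SCAP back when they are plentiful. Freed SREBP2 turns on the mevalonate and cholesterol enzymes and Insig1 itself, while SREBP1 acts mostly on fatty acid synthesis and desaturation. Liver X receptors (LXR) respond to oxysterols and raise the exporters Abca1 and Abcg1, and in dividing T cells SREBP activity is needed for membrane growth, whereas LXR signalling restrains proliferation.

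Gene counts ranged from 11937053 to 17094006 per library. The defining CD8 T cell transcripts were present in every library: the sum of 10 markers, Cd8a and Cd3e among them, lay between 4148 and 4335 CPM in day 14, 3120 and 3657 CPM in day 4, 5529 and 5891 CPM in effector and 4542 and 5103 CPM in naive libraries (CPM, counts scaled to library size with TMM factors). Melanoma transcripts were high in every tumour library. The sum of 11 melanoma markers was 1698, 713 and 442 CPM in day 14 and 1064, 992 and 719 CPM in day 4 libraries, against 36.9 to 43.2 CPM in effector and 34.9 to 41.2 CPM in naive libraries. All 11 were higher in each tumour group than in effector and naive cells by edgeR. Tyrp1, Tyr, Sox10, Gpr143 and S100b had no count in effector libraries, and Gpr143 and S100b had none in naive libraries. Cycling transcripts also moved with the groups, since the sum of 12 markers was 4761 to 6066 CPM in day 14, 5330 to 5364 CPM in day 4, 449 to 1399 CPM in effector and 457 to 640 CPM in naive libraries. Effector replicate 2 held the 1399 CPM, against 449 and 518 CPM in the other effector libraries. Of 14 macrophage and monocyte markers tested, 4 were higher and 0 lower in each tumour group than in naive cells by edgeR. Against effector cells, 11 were higher and 0 lower at day 14 (background 32.6% higher). At day 4, 12 of these markers were higher and 1 lower than in effector cells (background 32.7% higher). Their sum over 15 markers lay between 86.7 and 219 CPM in day 14, 81.4 and 185 CPM in day 4, 191 and 325 CPM in effector and 85.5 and 169 CPM in naive libraries, and was mostly Ly6c2, which CD8 T cells also express. Of 8 tested markers of dendritic cells and class II genes, 8 were higher at day 14 and 6 at day 4 than in naive cells. The sum of 9 such markers was 186 to 225 CPM in day 14, 144 to 189.6 CPM in day 4, 9.99 to 24.5 CPM in effector and 12.9 to 36.3 CPM in naive libraries, with Cd74 as the most abundant in tumour libraries. The sum of 5 CD4 T cell and Treg markers, mostly Ikzf2, was 277 to 341 CPM in day 14, 717 to 813 CPM in day 4, 154 to 303 CPM in effector and 58.7 to 79.5 CPM in naive libraries, and Cd4 itself averaged 3.6 CPM or less in every group. The sum of 4 NK cell markers, nearly all Eomes, which CD8 T cells also express, was 128 to 177 CPM in day 14, 108 to 173 CPM in day 4, 12.4 to 23.1 CPM in effector and 33.8 to 62.5 CPM in naive libraries. Fibroblast markers summed to at most 25.5 CPM in any library. Of 6 tested, 4 were higher and 0 lower at day 14 than in naive cells, and 3 higher and 1 lower at day 4. The background was 33.6% higher at day 14 and 33.4% at day 4. Sums of B cell and endothelial markers were lower in every tumour library than in any effector or naive library. The 2 endothelial markers tested went opposite ways against naive cells. The log2 changes were 5.98 and -1.93 at day 14 and 6.42 and -1.36 at day 4. The part of these cells in the results was not tested.

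Most of the pathway was higher in both kinds of tumour cell, and the sterol exporters and a few enzymes were lower. Against naive cells, 22 of the 37 members rose and 6 fell at day 14 (edgeR adjusted p under 0.05). The background over 16426 tested genes was 33.6% higher and 28.5% lower, 62.1% in either direction. At day 4, 22 members rose and 6 fell as well, beside 33.4% of all tested genes higher, 28.8% lower and 62.2% in either direction. The median log2 fold change over the members was 0.47 at day 14 and 0.58 at day 4, beside medians over all tested genes of 0.04 and 0.03. Against effector cells, 19 members rose and 5 fell at day 14 (background 32.6%, 28.4% and 61.0% in either direction). At day 4, 20 rose and 4 fell (background 32.7%, 29.2% and 61.9%). The member medians were 0.32 and 0.30. Effector cells differed from naive cells at fewer members, with 7 higher and 3 lower (background 14.6%, 10.4% and 24.9%) and a median of 0.07. Day 14 cells differed from day 4 cells at 4 members, 1 higher and 3 lower (background 7.17%, 4.91% and 12.1%). These contrasts share groups and are not independent of each other.

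**Figure D1:**
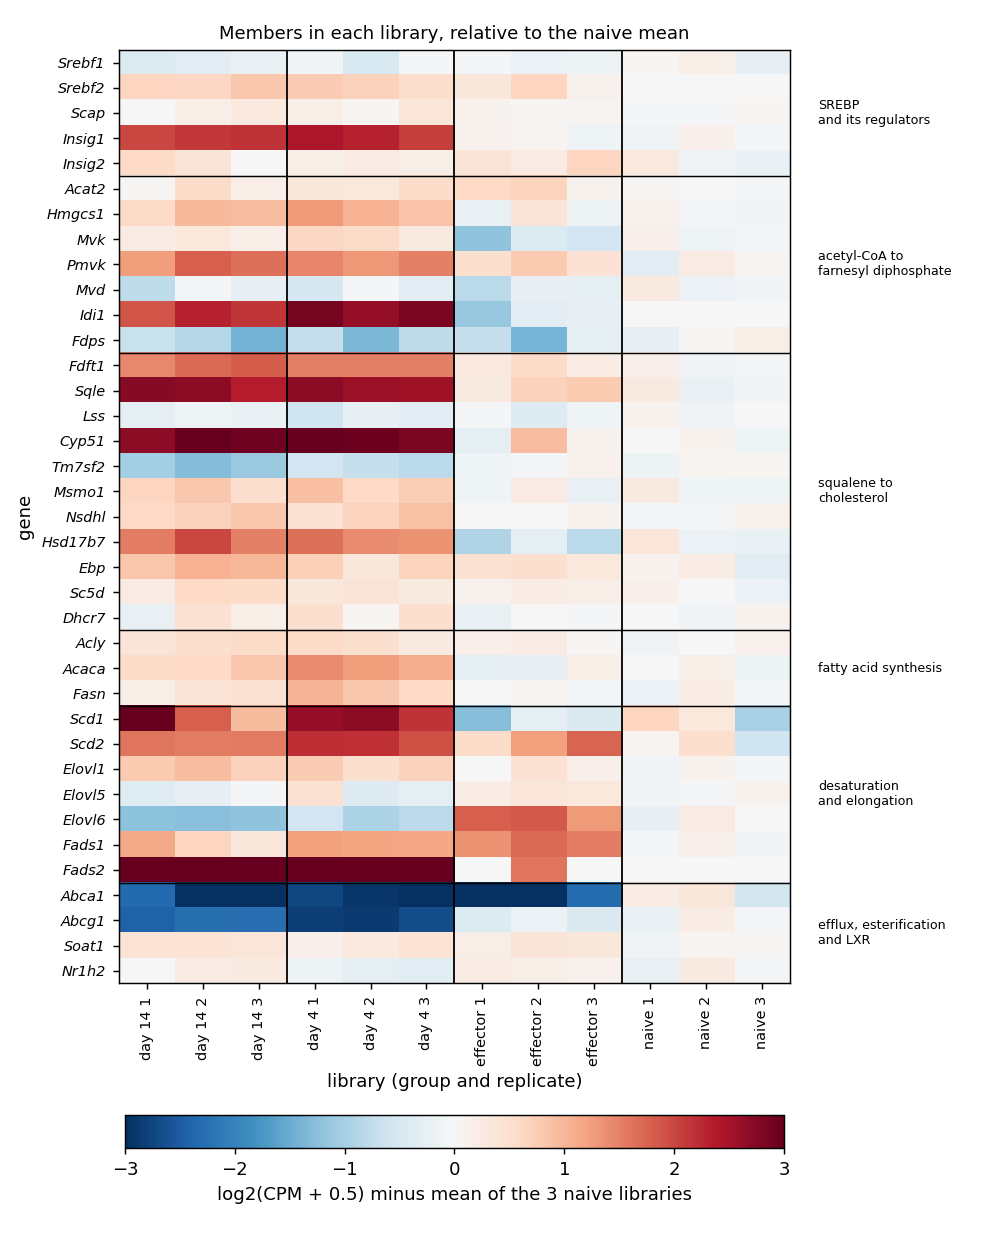
Heat map of the 37 members (rows, grouped by role) in the 12 libraries (columns), coloured by log2(CPM + 0.5) minus the mean of the 3 naive libraries, with colours ending at 3 on either side. The tumour columns are red for Insig1, Idi1, Sqle, Cyp51, Scd1, Scd2 and Fads2 and blue for Abca1 and Abcg1, and the effector columns share the blue of Abca1 and are red for Elovl6.

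In both tumour groups, 17 members were higher than in effector and also than in naive cells: Srebf2, Insig1, Hmgcs1, Pmvk, Idi1, Fdft1, Sqle, Cyp51, Msmo1, Nsdhl, Hsd17b7, Acly, Acaca, Fasn, Scd1, Elovl1 and Fads2. That is 45.9% of the members, beside 22.7% of all tested genes. The reverse pattern, lower in both tumour groups than in effector and in naive cells, held for Abcg1, Elovl6 and Tm7sf2, which is 8.11% of the members beside 17.8% of all tested genes. Across the 4 groups together, 28 of 37 members differed, beside 74.8% of all tested genes. Acat2, Insig2, Mvd and Scap were called in no contrast. In bulk RNA, fewer cells that express a gene and less RNA per cell cannot be told apart.

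Among the sterol sensors, Insig1 and Srebf2 rose in the tumour while Scap and Insig2 were called in none of the 6 contrasts. Insig1 (ENSMUSG00000045294.11, chromosome 5, 28071363-28078662, plus strand), the SCAP anchor that SREBP itself induces, had 100.2, 109 and 113 CPM in day 14 libraries and 136, 126 and 106 CPM in day 4 libraries. Effector libraries held 27.2, 26.3 and 22.7 CPM and naive libraries 22.8, 27.4 and 24.3 CPM. Every tumour library was above 100 CPM and every other library under 28 CPM. Insig1 was 4.33-fold higher at day 14 (log2 change 2.11, SE 0.12, adjusted p = 2.74e-10 by edgeR) and 4.93-fold higher at day 4 than in naive cells (log2 change 2.30, SE 0.12, adjusted p = 1.02e-10 by edgeR), while the effector difference was not called (log2 change 0.03, SE 0.12, adjusted p = 0.889 by edgeR). Srebf2 (ENSMUSG00000022463.8, chromosome 15, 82147181-82205379, plus strand), the factor of the cholesterol branch, had 167, 165 and 187 CPM in day 14 libraries and 180.4, 173 and 155 CPM in day 4 libraries. The values were 134, 166 and 117 CPM in effector and 108, 106 and 105 CPM in naive libraries. The naive libraries lay within 3 CPM of each other and below all others, and effector replicate 2 reached into the tumour range. Srebf2 was 1.62-fold higher at day 14 (log2 change 0.70, SE 0.11, adjusted p = 4.22e-05 by edgeR) and 1.59-fold higher at day 4 than in naive cells (log2 change 0.67, SE 0.11, adjusted p = 6.54e-05 by edgeR). Its smaller rise over effector cells was called at day 14 (log2 change 0.31, SE 0.11, adjusted p = 0.021 by edgeR), though not without day 14 replicate 3 (edgeR adjusted p = 0.087) or effector replicate 3 (edgeR adjusted p = 0.0641), and at day 4 (log2 change 0.28, SE 0.11, adjusted p = 0.0348 by edgeR), though not without day 4 replicate 1 (edgeR adjusted p = 0.103), effector replicate 1 (edgeR adjusted p = 0.0516) or effector replicate 3 (edgeR adjusted p = 0.0824).

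The partner gene of the fatty acid branch was called lower at day 14 than in naive cells. Its test across the 4 groups was not called (edgeR adjusted p = 0.189). Srebf1 (ENSMUSG00000020538.15, chromosome 11, 60199089-60222581, minus strand) had 31.7, 34.2 and 36.1 CPM in day 14 libraries and 40.2, 30.6 and 41.6 CPM in day 4 libraries. In effector libraries Srebf1 had 41.1, 37.7 and 38 CPM, and in naive libraries 44.2, 48.1 and 35.8 CPM. The day 14 libraries lay below all effector libraries and overlapped day 4 and naive ones. Srebf1 was 1.26-fold lower at day 14 than in naive cells (log2 change -0.33, SE 0.14, adjusted p = 0.0477 by edgeR), a call that was lost without any 1 of day 14 replicates 1, 2 and 3, day 4 replicates 1 and 3, effector replicates 1, 2 and 3 and naive replicates 1 and 2 (edgeR adjusted p between 0.0519 and 0.232). Scap averaged 38.3 ± 3.87 CPM at day 14, 39.3 ± 4.06 CPM at day 4, 35.9 ± 0.911 CPM in effector and 34.1 ± 1.4 CPM in naive cells (SD, n = 3 each), and its largest difference was a log2 fold change of 0.21 (day 4 versus naive). Insig2, the paralogue with a similar anchoring role, averaged 22.2 ± 4.74, 19.9 ± 0.486, 23.6 ± 3.29 and 17.5 ± 3.4 CPM in the same order of groups (SD, n = 3 each). Per kilobase of exon, Insig1 stood at 34.8 RPKM and Insig2 at 6.39 RPKM at day 14, and at 8.04 and 5.05 RPKM in naive cells. On the same scale Srebf2 stood at 24.1 and Srebf1 at 6.03 RPKM at day 14, and at 14.8 and 7.58 RPKM in naive cells.

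The 7 enzymes from acetyl-CoA to farnesyl diphosphate held 3 members higher and 1 lower than naive in each tumour group. The 57.1% called was near the background of 62.1% at day 14 and 62.2% at day 4. Idi1 (ENSMUSG00000058258.14, chromosome 13, 8885501-8892451, plus strand), which isomerises the isoprene unit, had 22.1, 29.9 and 26.6 CPM in day 14 libraries and 44.5, 37.3 and 42.5 CPM in day 4 libraries. Its level was 2.3, 4.3 and 4.64 CPM in effector and 5.62, 5.65 and 5.59 CPM in naive libraries. The groups did not overlap, and effector libraries lay below naive ones. Idi1 was 4.66-fold higher at day 14 (log2 change 2.22, SE 0.21, adjusted p = 1.26e-07 by edgeR) and 7.36-fold higher at day 4 than in naive cells (log2 change 2.88, SE 0.21, adjusted p = 6.28e-09 by edgeR). Against effector cells it was 7.02-fold higher at day 14 (log2 change 2.81, SE 0.22, adjusted p = 1.31e-08 by edgeR) and 11.1-fold higher at day 4 (log2 change 3.47, SE 0.22, adjusted p = 1.13e-09 by edgeR). Hmgcs1 (ENSMUSG00000093930.2, chromosome 13, 119690379-119708260, plus strand), the synthase that makes HMG-CoA, had 48.4, 64 and 61.7 CPM in day 14 libraries and 78.6, 66.7 and 59 CPM in day 4 libraries. Effector libraries held 27.3, 42.1 and 28.7 CPM and naive libraries 35, 31.1 and 30.6 CPM. Its 6 tumour libraries were above the other 6, of which effector replicate 2 was the highest. Hmgcs1 rose over naive cells at day 14 (log2 change 0.85, SE 0.16, adjusted p = 0.000288 by edgeR) and at day 4 (log2 change 1.08, SE 0.16, adjusted p = 2.91e-05 by edgeR). Pmvk (ENSMUSG00000027952.16, chromosome 3, 89454541-89469013, plus strand), phosphomevalonate kinase, had 17.8, 25.9 and 23.7 CPM in day 14 libraries and 20.8, 18.6 and 21.4 CPM in day 4 libraries. The values were 10.3, 12.7 and 9.9 CPM in effector and 5.62, 8.6 and 7.65 CPM in naive libraries. The effector libraries lay between tumour and naive libraries without overlap. Pmvk was 3.09-fold higher at day 14 (log2 change 1.63, SE 0.20, adjusted p = 2.66e-06 by edgeR) and 2.78-fold higher at day 4 than in naive cells (log2 change 1.47, SE 0.20, adjusted p = 7.67e-06 by edgeR).

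Mevalonate kinase was low in effector cells. Mvk (ENSMUSG00000041939.14, chromosome 5, 114444269-114460591, plus strand) had 6.73, 7.11 and 6.54 CPM in day 14 libraries and 8.88, 8.65 and 6.88 CPM in day 4 libraries. In effector libraries Mvk had 2.16, 4.13 and 3.64 CPM, and in naive libraries 6.36, 5.1 and 5.51 CPM. Effector libraries stayed under 4.2 CPM and all others were above 5 CPM. Mvk rose over effector cells at day 14 (log2 change 1.04, SE 0.27, adjusted p = 0.00311 by edgeR) and at day 4 (log2 change 1.30, SE 0.27, adjusted p = 0.000512 by edgeR), and its differences from naive cells were not called (log2 change 0.26, SE 0.26, adjusted p = 0.392 by edgeR at day 14 and log2 change 0.52, SE 0.26, adjusted p = 0.0904 by edgeR at day 4). Fdps (ENSMUSG00000059743.12, chromosome 3, 89093588-89101959, minus strand), farnesyl diphosphate synthase, ran the other way at low levels. It had 1.45, 1.23 and 0.666 CPM in day 14 libraries and 1.39, 0.721 and 1.34 CPM in day 4 libraries. Its level was 1.44, 0.688 and 2.09 CPM in effector and 2.14, 2.71 and 3.06 CPM in naive libraries. Every tumour library lay below every naive library. Fdps fell 2.35-fold at day 14 (log2 change -1.23, SE 0.49, adjusted p = 0.0371 by edgeR) and 2.29-fold at day 4 against naive cells (log2 change -1.20, SE 0.49, adjusted p = 0.0429 by edgeR), but its test across the 4 groups missed the threshold (edgeR adjusted p = 0.0743). The day 14 call was lost without any 1 of day 14 replicates 2 and 3 and naive replicates 2 and 3 (edgeR adjusted p between 0.0648 and 0.131). The day 4 call was lost without any 1 of day 14 replicate 2, day 4 replicates 1, 2 and 3, effector replicate 1 and naive replicates 1, 2 and 3 (edgeR adjusted p between 0.0515 and 0.16). Of its exon bases, 26.7% are shared with Gm43738, a gene on the same strand, and reads that fit both were not counted, so its level is uncertain. Acat2, the cytosolic thiolase, averaged 16.4 ± 3.27, 18.1 ± 1.77, 19 ± 3.84 and 13.5 ± 0.443 CPM, and Mvd, the decarboxylase, 11.3 ± 2.83, 11.7 ± 1.91, 10.5 ± 2.25 and 14.4 ± 2.47 CPM at day 14, at day 4, in effector and in naive cells (SD, n = 3 each).

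From squalene to cholesterol, 8 of 11 enzymes (72.7%) rose over naive cells in each tumour group, beside 33.6% of all tested genes at day 14 and 33.4% at day 4. Of the others, 1 fell at day 14 and 2 fell at day 4. Cyp51 (ENSMUSG00000001467.5, chromosome 5, 4081145-4104746, minus strand), the lanosterol demethylase, had 136, 188 and 160.3 CPM in day 14 libraries and 216, 162 and 148 CPM in day 4 libraries. Effector libraries held 16.9, 39.8 and 22.4 CPM and naive libraries 21, 22.4 and 18.8 CPM. The tumour libraries did not overlap the others, and effector replicate 2 was the highest of the other 6. Cyp51 was 7.79-fold higher at day 14 (log2 change 2.96, SE 0.29, adjusted p = 7.99e-06 by edgeR) and 8.46-fold higher at day 4 than in naive cells (log2 change 3.08, SE 0.29, adjusted p = 5.95e-06 by edgeR). Sqle (ENSMUSG00000022351.14, chromosome 15, 59315077-59331192, plus strand), squalene epoxidase, a rate-limiting enzyme of the late pathway, had 107, 103 and 81.4 CPM in day 14 libraries and 103, 97.2 and 93.4 CPM in day 4 libraries. The values were 19, 25.5 and 27.2 CPM in effector and 19, 13.5 and 14.8 CPM in naive libraries. All tumour libraries were above 81 CPM and all others under 28 CPM. Sqle was 6.14-fold higher at day 14 (log2 change 2.62, SE 0.16, adjusted p = 6.24e-10 by edgeR) and 6.2-fold higher at day 4 than in naive cells (log2 change 2.63, SE 0.16, adjusted p = 5.81e-10 by edgeR). Hsd17b7 (ENSMUSG00000026675.12, chromosome 1, 169949535-169969241, minus strand), a sterol ketoreductase, had 45.6, 63.8 and 45.2 CPM in day 14 libraries and 49.5, 42 and 40.4 CPM in day 4 libraries. In effector libraries Hsd17b7 had 7.98, 12.6 and 8.66 CPM, and in naive libraries 20.03, 13.6 and 13.5 CPM. Its effector libraries were the lowest and its tumour libraries the highest, with no overlap. Hsd17b7 rose 3.28-fold at day 14 (log2 change 1.71, SE 0.20, adjusted p = 1.86e-06 by edgeR) and 2.79-fold at day 4 over naive cells (log2 change 1.48, SE 0.20, adjusted p = 8.56e-06 by edgeR). Fdft1 (ENSMUSG00000021273.11, chromosome 14, 63145150-63179578, minus strand), squalene synthase, had 48.1, 57.3 and 62.6 CPM in day 14 libraries and 49.9, 50.2 and 50.2 CPM in day 4 libraries. Its level was 21.2, 26.1 and 20.2 CPM in effector and 19.4, 16.2 and 16.5 CPM in naive libraries. Effector libraries lay between the tumour and naive libraries, and the day 14 and day 4 libraries overlapped. Fdft1 rose 3.23-fold at day 14 (log2 change 1.69, SE 0.14, adjusted p = 2.33e-08 by edgeR) and 2.89-fold at day 4 over naive cells (log2 change 1.53, SE 0.14, adjusted p = 7.28e-08 by edgeR). Of its exon bases, 18.3% lie opposite exons of Ctsb, and the counts used here do not separate strands.

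The other late enzymes moved less. Msmo1, Nsdhl, Ebp and Sc5d, which remove methyl groups or shift and add double bonds, rose over naive cells by log2 changes of 0.65, 0.71, 0.97 and 0.47 at day 14 and of 0.75, 0.68, 0.58 and 0.33 at day 4. The day 4 call of Sc5d was lost without any 1 of day 4 replicates 1 and 2 and naive replicates 2 and 3 (edgeR adjusted p between 0.0516 and 0.117). Tm7sf2, a sterol reductase with a membrane paralogue in the lamin B receptor, fell instead. It averaged 2.23 ± 0.259 CPM at day 14, 3.23 ± 0.291 CPM at day 4, 5.41 ± 0.556 CPM in effector and 5.53 ± 0.506 CPM in naive cells (SD, n = 3 each), with tumour libraries all below the others. Tm7sf2 was 2.48-fold lower at day 14 (log2 change -1.31, SE 0.28, adjusted p = 0.00061 by edgeR) and 1.71-fold lower at day 4 than in naive cells (log2 change -0.77, SE 0.27, adjusted p = 0.0202 by edgeR), the day 4 call being lost without any 1 of day 4 replicates 2 and 3 and naive replicates 2 and 3 (edgeR adjusted p between 0.0535 and 0.0705). Its fall against effector cells at day 4 (log2 change -0.74, SE 0.27, adjusted p = 0.0252 by edgeR) was lost without day 4 replicate 2 (edgeR adjusted p = 0.0758), day 4 replicate 3 (edgeR adjusted p = 0.0986) or effector replicate 3 (edgeR adjusted p = 0.11). Of its exon bases, 12.1% are shared with Vps51 on the same strand. Lss, which closes the sterol rings, fell at day 4 (log2 change -0.38, SE 0.13, adjusted p = 0.0158 by edgeR), though not without day 4 replicate 1 (edgeR adjusted p = 0.105) or naive replicate 1 (edgeR adjusted p = 0.0739), and its day 14 difference was not called (log2 change -0.21, SE 0.13, adjusted p = 0.17 by edgeR). Dhcr7, a last reductase of the pathway, was called in 1 contrast, higher at day 4 than in effector cells (log2 change 0.46, SE 0.18, adjusted p = 0.0308 by edgeR), though not without day 4 replicate 1 (edgeR adjusted p = 0.095), day 4 replicate 3 (edgeR adjusted p = 0.0744) or effector replicate 1 (edgeR adjusted p = 0.0707). Across the 4 groups neither Lss (edgeR adjusted p = 0.0778) nor Dhcr7 (edgeR adjusted p = 0.0976) was called.

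**Figure D2:**
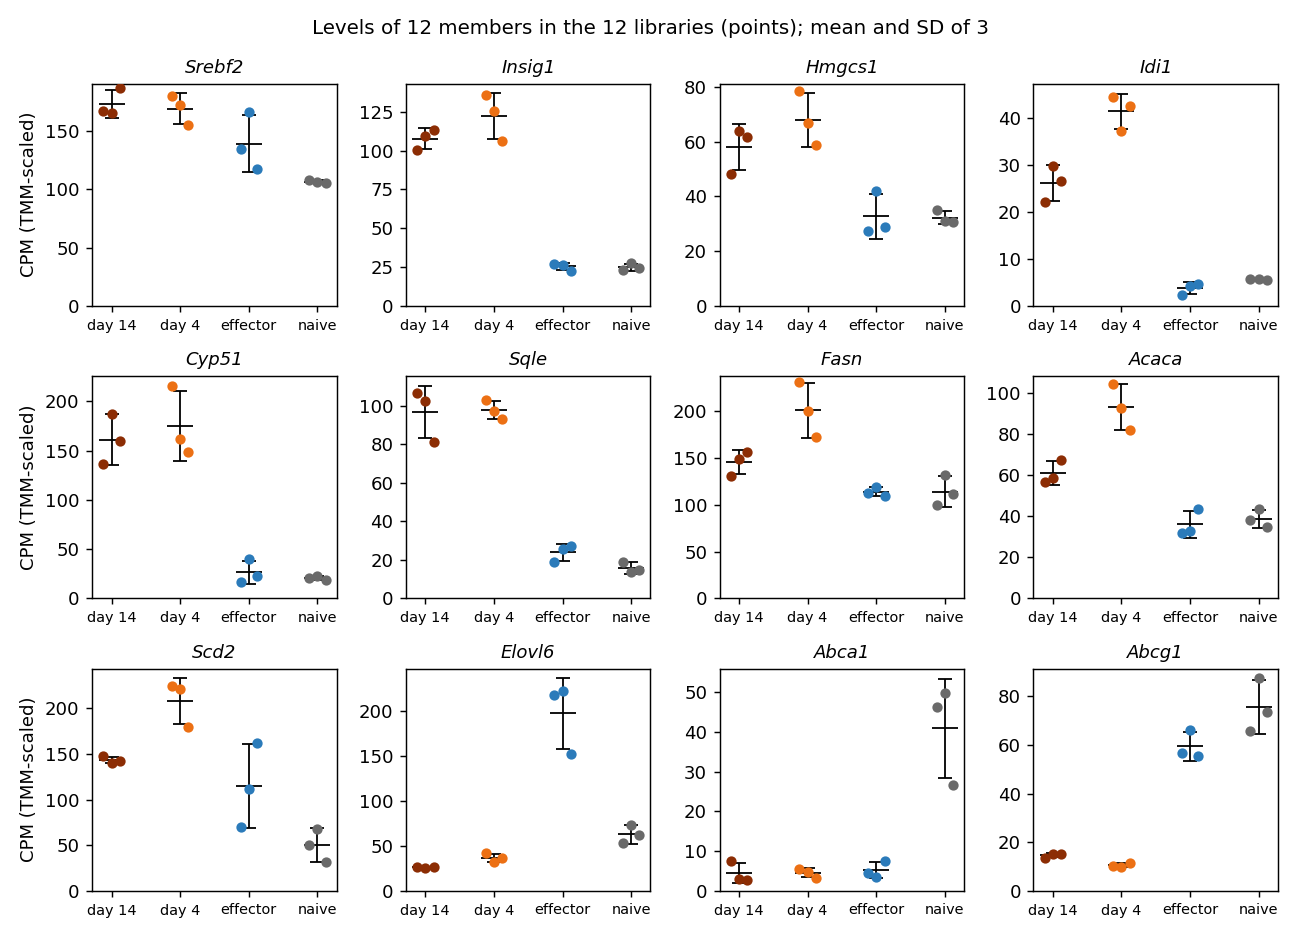
Levels of 12 members in TMM-scaled CPM (vertical axes from 0), with 1 point per library and the mean and SD of the 3 libraries of each group. For Insig1, Idi1, Cyp51 and Sqle the day 14 and day 4 points lie above all effector and naive points, for Elovl6 the effector points stand above all others, and for Abca1 only the naive points are high.

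The stretches upstream of the start are shown for Hmgcs1, whose sterol regulatory element is a textbook SREBP site, and for Cyp51, picked after its values were seen as the member with the largest day 4 rise over naive among those with naive counts and a single start in the table. They are 250 bases on the gene's own strand, 5′ to 3′, from the RefSeq table of GRCm38.p6, at chr13:119690101-119690350 (plus strand) and chr5:4104698-4104947 (minus strand). Capitals mark matches to TCACNCCAC, 1 form of the sterol regulatory element, and to CCAAT, the box bound by NF-Y, read on either strand as ATTGG.
Hmgcs1 upstream: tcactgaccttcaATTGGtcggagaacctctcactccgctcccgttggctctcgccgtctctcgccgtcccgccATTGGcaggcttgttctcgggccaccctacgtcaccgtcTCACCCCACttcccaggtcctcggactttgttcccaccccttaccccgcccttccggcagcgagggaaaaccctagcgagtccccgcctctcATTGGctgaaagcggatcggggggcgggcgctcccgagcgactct
Cyp51 upstream: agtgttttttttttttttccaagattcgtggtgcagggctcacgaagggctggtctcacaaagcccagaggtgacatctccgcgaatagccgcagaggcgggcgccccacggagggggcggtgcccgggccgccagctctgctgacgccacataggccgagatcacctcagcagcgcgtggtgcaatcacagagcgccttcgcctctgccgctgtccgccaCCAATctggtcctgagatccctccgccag
In the Hmgcs1 stretch the sterol element began 137 bases before the start, between CCAAT boxes at 237, 176 and 45 bases. The Cyp51 stretch held a CCAAT box at 29 bases and no match to this form of the sterol element. Of the 37 members, 30 had windows in that table (39 windows of 300 bases, each running 50 bases past the start). Searched on both strands, TCACNCCAC was found for 1 of these 30 genes (3.33%), beside 1.36% of the 10466 tested genes with a window. CCAAT was found for 23 of 30 (76.7%), beside 42.9%, and GGGCGG, the box of SP1, for 24 of 30 (80%), beside 65.6%. The shorter CACNCCAC, which lies inside TCACNCCAC and was tried after the longer form had been counted, was found for 3 of 30 (10%), beside 7.59%. These are matches of letters in short windows and say nothing on binding. A gene without a match may hold a sterol element with other letters or outside its window, which was not searched.

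All 3 enzymes of fatty acid synthesis rose in both tumour groups over naive and over effector cells, and the rise of Fasn and Acaca was smaller at day 14 than at day 4. Acaca (ENSMUSG00000020532.18, chromosome 11, 84129672-84401651, plus strand), acetyl-CoA carboxylase, had 56.7, 58.4 and 67.6 CPM in day 14 libraries and 104, 92.8 and 82.2 CPM in day 4 libraries. Effector libraries held 31.7, 32.7 and 43.6 CPM and naive libraries 38.1, 43.5 and 34.8 CPM. The groups of tumour libraries stood apart from each other and above all other libraries. Acaca rose 1.57-fold at day 14 (log2 change 0.65, SE 0.14, adjusted p = 0.00058 by edgeR) and 2.4-fold at day 4 over naive cells (log2 change 1.26, SE 0.14, adjusted p = 6.8e-07 by edgeR). Fasn (ENSMUSG00000025153.9, chromosome 11, 120805846-120824547, minus strand), fatty acid synthase, had 131, 149 and 157 CPM in day 14 libraries and 231, 200.3 and 172 CPM in day 4 libraries. The values were 113, 119 and 109 CPM in effector and 99.7, 132 and 111 CPM in naive libraries. Day 4 libraries were the highest, and the lowest day 14 library lay just under the highest naive one. Fasn rose 1.27-fold at day 14 (log2 change 0.35, SE 0.12, adjusted p = 0.0165 by edgeR) and 1.76-fold at day 4 over naive cells (log2 change 0.82, SE 0.12, adjusted p = 1.61e-05 by edgeR). Its day 14 calls were lost without day 14 replicate 3 (edgeR adjusted p = 0.0625) or naive replicate 1 (edgeR adjusted p = 0.0912) against naive cells, and without day 14 replicate 3 (edgeR adjusted p = 0.0637) against effector cells. Acly (ENSMUSG00000020917.17, chromosome 11, 100476353-100528000, minus strand), ATP citrate lyase, which supplies acetyl-CoA to both branches, had 144, 157 and 163 CPM in day 14 libraries and 165, 156 and 135 CPM in day 4 libraries. In effector libraries Acly had 123, 131 and 114 CPM, and in naive libraries 103, 109.7 and 122 CPM. All tumour libraries were above all naive ones. Acly rose 1.39-fold at day 14 (log2 change 0.47, SE 0.10, adjusted p = 0.000554 by edgeR) and 1.36-fold at day 4 over naive cells (log2 change 0.45, SE 0.10, adjusted p = 0.00089 by edgeR). Over effector cells its day 4 call (log2 change 0.30, SE 0.10, adjusted p = 0.0127 by edgeR) was lost without day 4 replicate 1 (edgeR adjusted p = 0.0574).

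Among desaturases and elongases, 5 of 7 (71.4%) rose and Elovl6 fell against naive cells in each tumour group, beside a background of 33.6% higher at day 14 and 33.4% at day 4. Elovl6 (ENSMUSG00000041220.10, chromosome 3, 129532355-129638495, plus strand), which lengthens palmitate, had 26.1, 25.7 and 26.6 CPM in day 14 libraries and 41.5, 31.7 and 35.9 CPM in day 4 libraries. Its level was 217, 222 and 152 CPM in effector and 52.6, 73.4 and 61.8 CPM in naive libraries. The 4 groups did not overlap, with effector libraries far above naive ones and tumour libraries below. Elovl6 was 2.39-fold lower at day 14 (log2 change -1.26, SE 0.15, adjusted p = 3.38e-06 by edgeR) and 1.72-fold lower at day 4 than in naive cells (log2 change -0.78, SE 0.15, adjusted p = 0.000317 by edgeR), and 3.15-fold higher in effector than in naive cells (log2 change 1.65, SE 0.15, adjusted p = 1.73e-06 by edgeR). Tumour cells stood 7.53-fold below effector cells at day 14 (log2 change -2.91, SE 0.16, adjusted p = 4.82e-10 by edgeR) and 5.41-fold below them at day 4 (log2 change -2.44, SE 0.16, adjusted p = 2.22e-09 by edgeR). Scd2 (ENSMUSG00000025203.6, chromosome 19, 44293674-44306864, plus strand), the desaturase that makes oleate in many mouse tissues outside the liver, had 147, 140.0 and 143 CPM in day 14 libraries and 225, 221 and 179.7 CPM in day 4 libraries. Effector libraries held 70.5, 112 and 162 CPM and naive libraries 50.8, 68.3 and 31.5 CPM. Day 4 libraries were the highest and naive libraries the lowest, and the effector libraries were widely spread. Scd2 rose 2.86-fold at day 14 (log2 change 1.52, SE 0.33, adjusted p = 0.00281 by edgeR) and 4.16-fold at day 4 over naive cells (log2 change 2.06, SE 0.33, adjusted p = 0.000468 by edgeR). Over effector cells the day 4 call (log2 change 0.86, SE 0.32, adjusted p = 0.0398 by edgeR) was lost without any 1 of day 14 replicate 3, day 4 replicates 1 and 2, effector replicates 1 and 2 and naive replicate 1 (edgeR adjusted p between 0.0561 and 0.0959), and day 14 was not called (log2 change 0.32, SE 0.32, adjusted p = 0.409 by edgeR). Among the rest, Elovl1, which makes very long chains, rose over naive cells by log2 changes of 0.82 at day 14 and 0.66 at day 4. Elovl5, the elongase of polyunsaturated chains, was called in 1 contrast, lower at day 14 than in effector cells (log2 change -0.53, SE 0.17, adjusted p = 0.0192 by edgeR), though not without any 1 of day 14 replicates 1 and 2 and effector replicates 2 and 3 (edgeR adjusted p between 0.0527 and 0.0907). Its test across the 4 groups was not called (edgeR adjusted p = 0.0788).

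The paralogue Scd1 and the desaturases Fads1 and Fads2 rose over naive cells in both tumour groups. Scd1 (ENSMUSG00000037071.3, chromosome 19, 44394455-44407879, minus strand) had 13.5, 5.53 and 2.85 CPM in day 14 libraries and 10.2, 10.6 and 7.35 CPM in day 4 libraries. The values were 0.216, 0.946 and 0.774 CPM in effector and 2.22, 1.67 and 0.383 CPM in naive libraries. All tumour libraries were above all others, and day 14 replicates 1 and 3 lay 4.73-fold apart. Scd1 was higher at day 14 (log2 change 2.34, SE 0.62, adjusted p = 0.00499 by edgeR) and at day 4 than in naive cells (log2 change 2.71, SE 0.62, adjusted p = 0.00189 by edgeR). Without day 14 replicate 1, which held the highest melanoma sum, the day 14 log2 changes of Scd1 were 1.56 against naive and 2.75 against effector cells, in place of 2.34 and 3.50. Fads2 (ENSMUSG00000024665.8, chromosome 19, 10062765-10101746, minus strand), the first desaturase on the way to polyunsaturated fatty acids, had 9.57, 6.29 and 4.48 CPM in day 14 libraries and 9.39, 8.29 and 5.75 CPM in day 4 libraries. In effector libraries Fads2 had 0, 1.03 and 0 CPM, and in naive libraries 0, 0 and 0 CPM. It had no count in naive libraries and 12 counts in effector libraries, all in replicate 2, against 326 counts in day 14 and 352 in day 4 libraries. With a floor of 3 counts over the naive group, Fads2 was at least 87.4-fold higher at day 14 and at least 101.5-fold higher at day 4. Fads2 was also higher than in effector cells at day 14 (log2 change 4.36, SE 0.87, adjusted p = 0.0014 by edgeR) and at day 4 (log2 change 4.57, SE 0.87, adjusted p = 0.001 by edgeR), and without effector replicate 2, which leaves effector cells at 0 counts, the fitted log2 values were 9.62 and 9.83, which rest on the prior count. Fads1, the next desaturase, averaged 24.8 ± 7.33 CPM at day 14, 34.1 ± 0.924 CPM at day 4, 43.1 ± 5.18 CPM in effector and 14.6 ± 1.32 CPM in naive cells (SD, n = 3 each). It rose over naive cells at day 14 (log2 change 0.76, SE 0.18, adjusted p = 0.00145 by edgeR), at day 4 (log2 change 1.22, SE 0.18, adjusted p = 1.9e-05 by edgeR) and in effector cells (log2 change 1.56, SE 0.18, adjusted p = 1.23e-05 by edgeR), and was lower at day 14 than in effector cells (log2 change -0.79, SE 0.17, adjusted p = 0.00086 by edgeR).

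Across the 3 day 14 libraries 8 members had the order of the melanoma sums: Scd1, Fads1, Fads2, Insig2, Fdps, Sqle, Abca1 and Soat1. That is 21.6% of the members, beside 20% of all tested genes, so the order alone did not set the members apart. The melanoma sum was 3.84-fold higher in replicate 1 than in replicate 3. Over the same pair Scd1 was 4.73-fold, Abca1 2.6-fold, Fdps 2.18-fold, Fads2 2.14-fold, Fads1 1.77-fold and Insig2 1.55-fold higher. These are the 6 members over 1.5-fold, which 16.7% of all tested genes also passed. Sqle, at 1.31-fold, and Scd2, at 1.03-fold, differed less. The ratios of Insig1 (0.884), Cyp51 (0.848) and Idi1 (0.832) were below 1, so these 3 were lower in the day 14 library with the most melanoma transcripts. The median ratio was 0.889 over members and 0.999 over all tested genes. At day 4 the melanoma sums were 1064, 992 and 719 CPM. Insig1 (136, 126 and 106 CPM) and Cyp51 (216, 162 and 148 CPM) had that order there, as did Sqle, Scd2, Hmgcs1, Fasn and Acaca. Srebf2, Acly, Mvk, Hsd17b7, Tm7sf2, Fads1, Fads2, Abca1 and Nr1h2 had it too. The remaining members, Idi1 (44.5, 37.3 and 42.5 CPM) and Scd1 (10.2, 10.6 and 7.35 CPM) among them, did not. The share of all tested genes with that order at day 4 was not computed. With day 14 replicate 1 and day 4 replicate 1 left out, 22 members were called higher and 5 lower than naive at day 14, and likewise 22 and 5 at day 4. The libraries left in still held melanoma sums of 713 and 442 CPM at day 14 and of 992 and 719 CPM at day 4. The part of melanoma RNA in the levels of Scd1, Fads1, Fads2 and the other members was not tested. Of the cycling markers, all 12 were higher in each tumour group than in naive and in effector cells, and their part in the results was not tested.

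**Figure D3:**
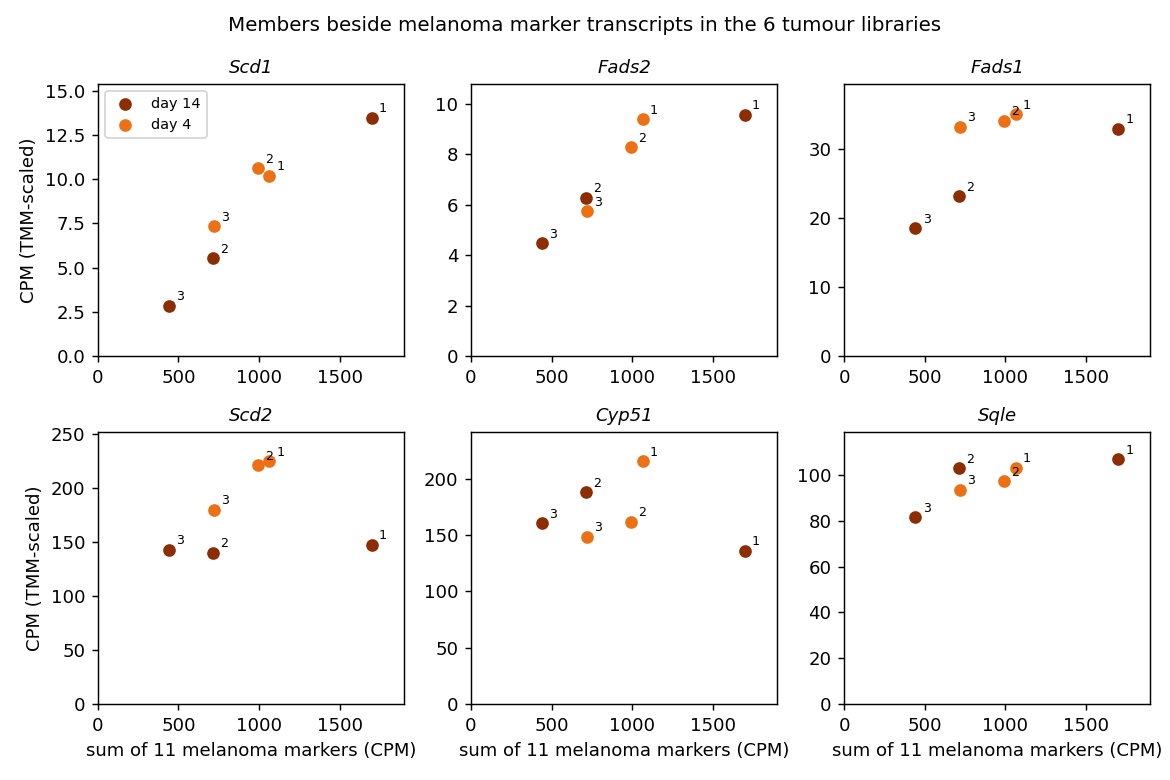
Level of 6 members in TMM-scaled CPM (vertical axes) against the sum of 11 melanoma markers in CPM (horizontal axes) in the 6 tumour libraries, with replicate numbers beside the points. Scd1 and Fads2 are highest where the marker sum is high (day 14 replicate 1 at 1698 CPM), while Cyp51 is lowest in that library and Scd2 at day 14 is nearly flat. Among the day 4 points, Fads2, Fads1, Scd2, Cyp51 and Sqle follow the order of the marker sums, and Scd1 does not.

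Against naive cells, the exporters were the members that fell most in both tumour groups. Abca1 (ENSMUSG00000015243.4, chromosome 4, 53030787-53159895, minus strand), the LXR-induced cholesterol exporter, had 7.39, 3.06 and 2.85 CPM in day 14 libraries and 5.5, 4.81 and 3.34 CPM in day 4 libraries. Its level was 4.53, 3.53 and 7.5 CPM in effector and 46.2, 49.7 and 26.6 CPM in naive libraries. All 9 libraries of antigen-experienced cells stayed under 8 CPM, and naive libraries were above 26 CPM. Abca1 was 9.25-fold lower at day 14 (log2 change -3.21, SE 0.40, adjusted p = 1.61e-05 by edgeR), 8.97-fold lower at day 4 (log2 change -3.16, SE 0.40, adjusted p = 1.77e-05 by edgeR) and 7.84-fold lower in effector than in naive cells (log2 change -2.97, SE 0.40, adjusted p = 0.000174 by edgeR). The tumour groups did not differ from effector cells by the test (log2 change -0.24, SE 0.41, adjusted p = 0.634 by edgeR at day 14 and log2 change -0.19, SE 0.41, adjusted p = 0.698 by edgeR at day 4). Abcg1 (ENSMUSG00000024030.7, chromosome 17, 31057675-31117988, plus strand), the partner exporter to high-density lipoprotein, had 13.6, 15.3 and 15 CPM in day 14 libraries and 10.1, 9.85 and 11.5 CPM in day 4 libraries. Effector libraries held 56.6, 66.1 and 55.5 CPM and naive libraries 65.8, 87.5 and 73.3 CPM. Here effector libraries stayed near the naive range and tumour libraries were far below both. Abcg1 was 5.15-fold lower at day 14 (log2 change -2.37, SE 0.13, adjusted p = 3.31e-10 by edgeR) and 7.2-fold lower at day 4 than in naive cells (log2 change -2.85, SE 0.14, adjusted p = 5.84e-11 by edgeR), and in effector cells the difference missed the threshold (log2 change -0.35, SE 0.13, adjusted p = 0.0532 by edgeR). Against effector cells it was 4.06-fold lower at day 14 (log2 change -2.02, SE 0.13, adjusted p = 2.01e-09 by edgeR) and 5.66-fold lower at day 4 (log2 change -2.50, SE 0.14, adjusted p = 2.14e-10 by edgeR). Whether the effector changes of Abca1 and Abcg1 differed from each other was not tested.

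Soat1 (ENSMUSG00000026600.12, chromosome 1, 156424525-156474331, minus strand), which esterifies cholesterol for storage, had 86.2, 85.9 and 83.1 CPM in day 14 libraries and 71.7, 79.8 and 86.1 CPM in day 4 libraries. The values were 73, 84.7 and 82.6 CPM in effector and 60.0, 68.4 and 66.4 CPM in naive libraries. All day 14, day 4 and effector libraries were above all naive ones. Soat1 rose 1.31-fold at day 14 (log2 change 0.39, SE 0.10, adjusted p = 0.00238 by edgeR) and 1.22-fold at day 4 over naive cells (log2 change 0.29, SE 0.10, adjusted p = 0.0172 by edgeR), the day 4 call being lost without day 4 replicate 3 (edgeR adjusted p = 0.0667) or naive replicate 1 (edgeR adjusted p = 0.064). Nr1h2 (ENSMUSG00000060601.13, chromosome 7, 44549616-44553951, minus strand), the LXR form that most tissues express, had 27.5, 32.6 and 33.5 CPM in day 14 libraries and 24.6, 22.9 and 21.7 CPM in day 4 libraries. In effector libraries Nr1h2 had 32.6, 31.4 and 30.1 CPM, and in naive libraries 23.6, 33.3 and 26.6 CPM. Day 4 libraries lay below all day 14 and effector libraries and overlapped the naive ones. Nr1h2 was 1.36-fold lower at day 4 than in effector cells (log2 change -0.44, SE 0.14, adjusted p = 0.0127 by edgeR), a call lost without day 4 replicate 2 (edgeR adjusted p = 0.0581), day 4 replicate 3 (edgeR adjusted p = 0.0791) or effector replicate 1 (edgeR adjusted p = 0.0687). Its day 14 level was 31.2 ± 3.24 CPM against 31.4 ± 1.27 CPM in effector and 27.8 ± 4.98 CPM in naive cells (SD, n = 3 each), and neither difference was called.

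The Abca1 stretch is shown because this member fell most at day 4 among those with naive counts and a single start. It lies at chr4:53159896-53160145 of GRCm38.p6 (minus strand), 5′ to 3′ on the gene's strand. The full LXR element, a pair of AGGTCA copies with 4 bases between them, was found in 0 of the 30 member genes with a window and 0 of the 10466 tested genes. A looser form, GGTNA and GGTCA with 5 bases between them, was written after the Abca1 stretch had been read. Both were searched on both strands, and capitals mark the match to the looser form, which begins 67 bases before the start and reads on the opposite strand.
Abca1 upstream: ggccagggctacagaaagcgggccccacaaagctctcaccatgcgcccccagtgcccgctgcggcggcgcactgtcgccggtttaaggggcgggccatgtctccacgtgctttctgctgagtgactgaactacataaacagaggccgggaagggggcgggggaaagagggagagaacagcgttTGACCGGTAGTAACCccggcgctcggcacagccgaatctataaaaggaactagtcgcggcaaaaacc
The looser form was found for 3 of 30 member genes (10%), beside 0.153% of the tested genes, and since it was fitted to Abca1 this share is a description. The other matches lay in the window of Fasn (chr11:120824498-120824797, minus strand, offset -225 from the start) and in 1 of the windows of Srebf1 (chr11:60210422-60210721, minus strand, offset -182), both of which are known LXR targets in liver. On the genes' own strands the sites read as follows.
Abca1 site: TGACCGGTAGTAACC
Fasn site: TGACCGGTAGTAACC
Srebf1 site: TGACCGCCAGTAACC
The Abca1 and Fasn sites are letter for letter the same. Neither the binding of LXR to these sites nor its part in the levels of the 3 genes was tested.

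Effector cells were set against naive cells to see what antigen stimulation in culture changed. Of 7 desaturases and elongases, Elovl6, Fads1 and Scd2 were higher, and of 18 cholesterol enzymes 2 were higher and 2 lower (11.1% each), near the background of 14.6% and 10.4%. Scd2 rose 2.29-fold (log2 change 1.19, SE 0.33, adjusted p = 0.0257 by edgeR), a call lost without any 1 of effector replicates 2 and 3 and naive replicates 1 and 3 (edgeR adjusted p between 0.052 and 0.0792). Sqle rose 1.51-fold (log2 change 0.60, SE 0.16, adjusted p = 0.01 by edgeR), though not without effector replicate 3 (edgeR adjusted p = 0.0629), and Pmvk 1.5-fold (log2 change 0.59, SE 0.20, adjusted p = 0.0416 by edgeR), though not without any 1 of day 14 replicates 2 and 3, day 4 replicates 1, 2 and 3, effector replicates 1, 2 and 3 and naive replicates 1 and 3 (edgeR adjusted p between 0.0503 and 0.183). Srebf2 rose 1.31-fold (log2 change 0.39, SE 0.11, adjusted p = 0.0174 by edgeR), though not without effector replicate 2 (edgeR adjusted p = 0.1) or naive replicate 2 (edgeR adjusted p = 0.0508), and Soat1 1.23-fold (log2 change 0.30, SE 0.10, adjusted p = 0.0316 by edgeR), though not without any 1 of day 14 replicates 1 and 2, day 4 replicates 2 and 3, effector replicates 2 and 3 and naive replicates 1 and 3 (edgeR adjusted p between 0.053 and 0.138). Beside Abca1, the falls were Hsd17b7 at 1.62-fold (log2 change -0.70, SE 0.21, adjusted p = 0.0222 by edgeR), though not without effector replicate 1 (edgeR adjusted p = 0.0714), effector replicate 3 (edgeR adjusted p = 0.0648) or naive replicate 1 (edgeR adjusted p = 0.132), and Mvk at 1.72-fold (log2 change -0.78, SE 0.27, adjusted p = 0.046 by edgeR), though not without any 1 of day 14 replicates 2 and 3, day 4 replicates 1 and 2, effector replicates 1 and 3 and naive replicates 1, 2 and 3 (edgeR adjusted p between 0.0503 and 0.155). Only Elovl6, Fads1 and Abca1 of the 10 calls held without each library in turn. Effector replicate 2, which had 2.89 times the cycling sum of the mean of replicates 1 and 3, also had 2.03 times their Cyp51, 1.91 times their Scd1, 1.51 times their Hsd17b7 and 1.5 times their Hmgcs1. Fads2 had counts in that effector library alone. The 4 of 37 members with a ratio over 1.5-fold are a share near the 12.4% of all tested genes with a ratio. The part of cycling in them was not tested. With total counts as scaling, the effector versus naive changes of all tested genes shifted by a median log2 of -0.11, and 1551 genes were then higher and 2506 lower, in place of 2395 and 1703, while 4 members were higher and 5 lower.

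Day 14 cells were set against day 4 cells to see what changed with time in the tumour. The members called were 10.8%, near the background of 12.1% of all tested genes. Acaca was 1.53-fold lower at day 14 (log2 change -0.61, SE 0.13, adjusted p = 0.0058 by edgeR). Fasn was 1.38-fold lower (log2 change -0.47, SE 0.12, adjusted p = 0.014 by edgeR), a call lost without day 14 replicate 1 (edgeR adjusted p = 0.058) or day 4 replicate 1 (edgeR adjusted p = 0.0865). Idi1 was 1.58-fold lower (log2 change -0.66, SE 0.19, adjusted p = 0.029 by edgeR), a call lost without any 1 of day 14 replicates 1 and 3 and day 4 replicates 1 and 3 (edgeR adjusted p between 0.0618 and 0.111). Abcg1 was 1.4-fold higher (log2 change 0.48, SE 0.14, adjusted p = 0.028 by edgeR), a call lost without any 1 of day 14 replicates 2 and 3 and day 4 replicates 1 and 2 (edgeR adjusted p between 0.0832 and 0.121). These 4 had no overlap between day 14 and day 4 libraries. Further members had none either, and the share over all tested genes was not computed, so this does not set them apart. With both replicates 1 left out, the libraries with the most melanoma transcripts in their groups, 1 member was lower and 0 were higher by edgeR. Abcg1 stayed 5.15-fold below naive cells at day 14. Of the 11 enzymes from squalene on, 0 differed by edgeR or by DESeq2 and 1 had an unadjusted p under 0.05. Among the desaturases and elongases 0 of 7 were called by edgeR, 1 was called by DESeq2, and 2 had an unadjusted p under 0.05. At an edgeR background of 12.1%, sets of 11 and 7 genes are too small to set 0 calls apart from that share. Elovl6 (log2 change -0.48, SE 0.15, adjusted p = 0.0543 by edgeR) and Nr1h2 (log2 change 0.44, SE 0.14, adjusted p = 0.057 by edgeR) came near the threshold and had no overlap between day 14 and day 4 libraries.

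**Figure D4:**
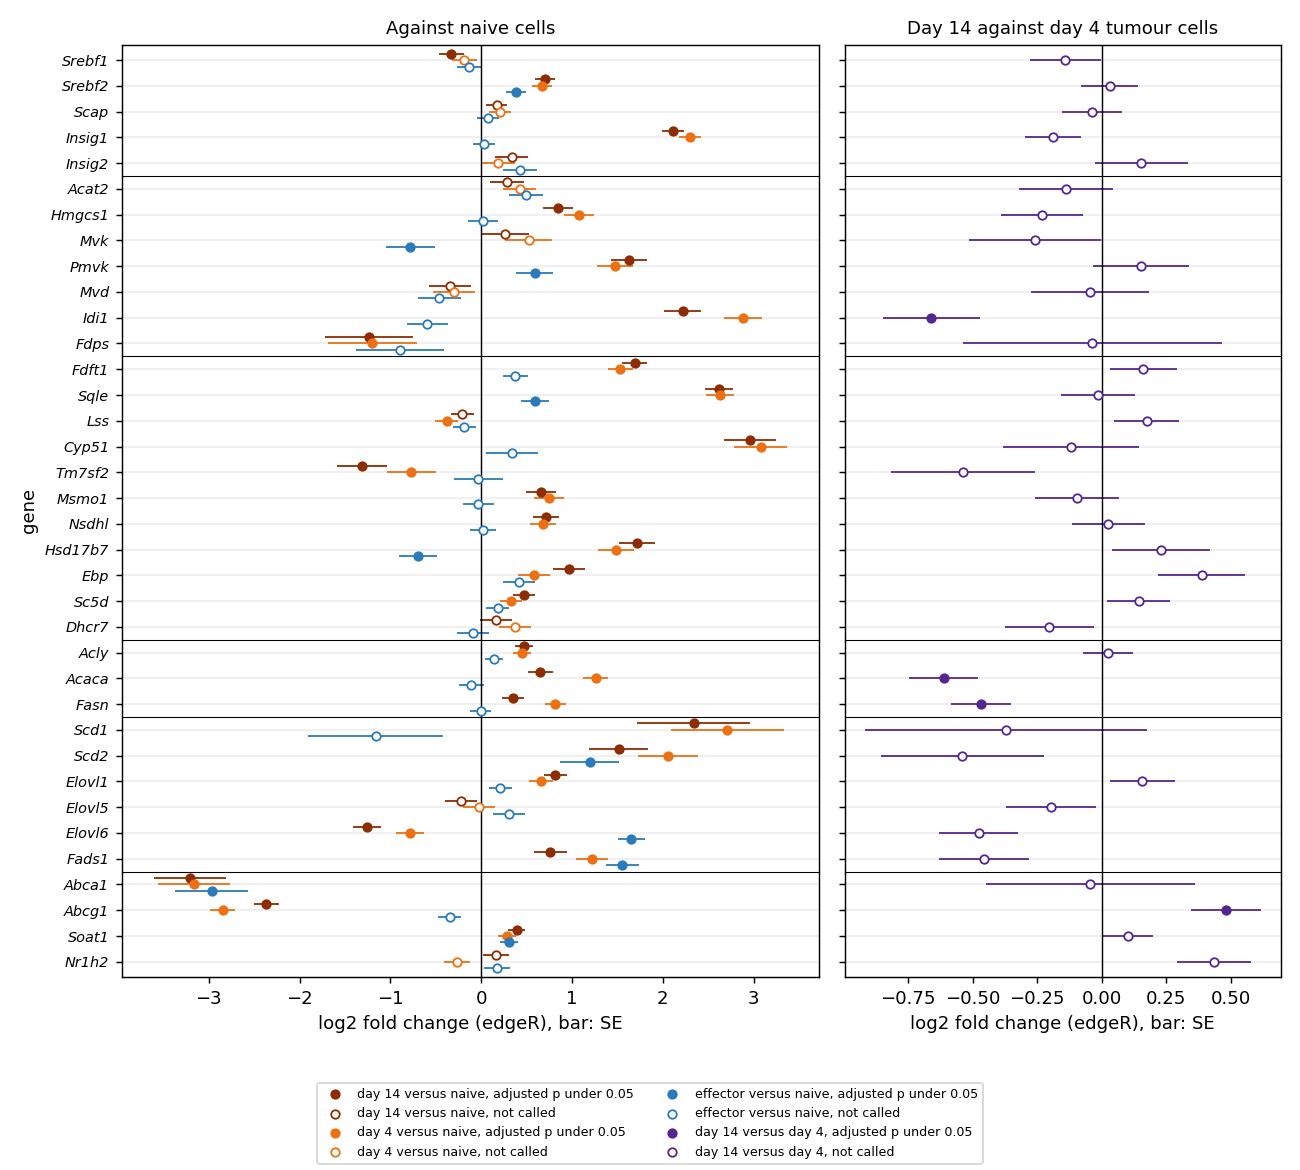
Fitted log2 fold changes (horizontal axes) of 36 members with their SE, on the left for day 14, day 4 and effector cells against naive cells and on the right for day 14 against day 4, with filled points where the edgeR adjusted p is under 0.05. Fads2, at 0 counts in naive cells, is left out, and the right panel, on a narrower axis, has filled points for Idi1, Acaca, Fasn and Abcg1 alone.

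Of the synthesis genes that are not among the 37, 17 were tested out of 19 listed, and 10 rose and 4 fell against naive cells at day 14, and 10 rose and 4 fell at day 4 (58.8% and 23.5% at either time, background 33.6% and 28.5% at day 14 and 33.4% and 28.8% at day 4). The risers include Idi2 and Me1, which could only pass the filter on low counts through the tumour groups in which they were higher. Idi2, the peroxisomal isomerase beside Idi1, had 17, 5.7 and 6.12 CPM in day 14 libraries and 51.7, 56.6 and 28.6 CPM in day 4 libraries. Its level was 0.0719, 0.086 and 0.232 CPM in effector and 0.369, 0.0796 and 0 CPM in naive libraries. It was under 0.4 CPM outside the tumour and lower at day 14 than at day 4 (log2 change -2.25, SE 0.44, adjusted p = 0.00673 by edgeR), by a log2 change of -2.96 without day 14 replicate 1. Me1, the malic enzyme that makes NADPH for fatty acid synthesis, had 17.4, 8.52 and 3.27 CPM in day 14 libraries and 13.5, 10.9 and 9.42 CPM in day 4 libraries and at most 0.0765 CPM in any other library. In day 14 libraries Me1 was highest where the melanoma sum was highest, and that part was not tested. Acss2, which makes acetyl-CoA from acetate, fell, with 2.64, 4.41 and 2.91 CPM in day 14 libraries and 3.67, 4.33 and 3.67 CPM in day 4 libraries. Effector libraries held 54.1, 59.7 and 27.2 CPM and naive libraries 58.5, 54.5 and 46.6 CPM. The tumour libraries were all under 5 CPM and the others above 27 CPM (log2 change -3.99, SE 0.28, adjusted p = 1.84e-08 by edgeR at day 14 and log2 change -3.77, SE 0.28, adjusted p = 3e-08 by edgeR at day 4, both against naive cells).

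Of 12 tested genes of sterol uptake and transport out of 13 listed, 3 rose and 4 fell against naive cells at day 14 (25% and 33.3%), near the background of 33.6% and 28.5%. At day 4, 3 rose and 6 fell (25% and 50%, background 33.4% and 28.8%). The risers at day 14 were Lrp8 and Vldlr, both lipoprotein receptors, and Stard4, a cytosolic sterol carrier, with log2 changes of 1.63, 5.56 and 1.59. Vldlr had 19.1, 6.94 and 4.12 CPM in day 14 libraries and 12.2, 16 and 11 CPM in day 4 libraries against under 1.3 CPM in every other library, and without day 14 replicate 1 its day 14 log2 change against naive cells was 4.71. Npc2, which hands cholesterol out of the lysosome, fell. It had 119, 139 and 119 CPM in day 14 libraries and 85.1, 85.1 and 77.7 CPM in day 4 libraries. The values were 369, 532 and 304 CPM in effector and 344, 308 and 334 CPM in naive libraries. No tumour library reached any effector or naive one (log2 change -1.38, SE 0.16, adjusted p = 3.54e-06 by edgeR at day 14 and log2 change -1.99, SE 0.16, adjusted p = 1.09e-07 by edgeR at day 4, both against naive cells).

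Among 14 tested genes of SREBP processing and LXR partners out of 16 listed, 4 rose and 6 fell against naive cells at day 14 (28.6% and 42.9%, background 33.6% and 28.5%). At day 4, 3 rose and 7 fell (21.4% and 50%, background 33.4% and 28.8%). Mylip, the LXR-induced ligase that degrades lipoprotein receptors, had 6.34, 3.88 and 4.36 CPM in day 14 libraries and 9.17, 6.13 and 7.02 CPM in day 4 libraries. In effector libraries Mylip had 31.6, 27.5 and 27.2 CPM, and in naive libraries 63.3, 71.7 and 58.9 CPM. Tumour libraries were the lowest, effector libraries next and naive libraries the highest, without overlap (log2 change -3.74, SE 0.20, adjusted p = 1.65e-10 by edgeR at day 14 and log2 change -3.12, SE 0.19, adjusted p = 7.99e-10 by edgeR at day 4, both against naive cells). Soat2, the second sterol esterifying enzyme, peaked in effector cells, with 2.24, 3 and 3.21 CPM in day 14 libraries and 1.61, 2.7 and 1.74 CPM in day 4 libraries. Its level was 13.4, 41.4 and 25.7 CPM in effector and 0.369, 1.19 and 0 CPM in naive libraries. Nr1h3, the other LXR form, stayed at or below 2.01 CPM in every library. In lipid storage, 8 of 15 genes rose and 1 fell against naive cells at day 14 (53.3% and 6.67%, background 33.6% and 28.5%). At day 4, 10 rose and 2 fell (66.7% and 13.3%, background 33.4% and 28.8%). Dgat1, which makes triglyceride, had 491, 536 and 395 CPM in day 14 libraries and 293, 163 and 184 CPM in day 4 libraries. Effector libraries held 32.7, 41 and 39.5 CPM and naive libraries 22.2, 20.5 and 18.1 CPM. The groups did not overlap, with day 14 libraries the highest, then day 4, effector and naive libraries. Dgat1 was 23.4-fold higher at day 14 than in naive cells (log2 change 4.55, SE 0.23, adjusted p = 9.55e-09 by edgeR) and 2.22-fold higher than at day 4 (log2 change 1.15, SE 0.20, adjusted p = 0.00249 by edgeR). Hilpda, a lipid droplet protein known as a hypoxia target, had 123, 127 and 91.6 CPM in day 14 libraries and 34.8, 37 and 46.8 CPM in day 4 libraries. The values were 13.9, 12.7 and 18.5 CPM in effector and 9.53, 10.4 and 12.4 CPM in naive libraries. It was likewise higher at day 14 than at day 4 (log2 change 1.53, SE 0.16, adjusted p = 1.88e-05 by edgeR).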

How the data were processed

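RNA from sorted cells was turned into amplified cDNA before library preparation, per the labels' protocols, so counts are not independent molecules. Reads had been trimmed with fastp 0.19.6 and aligned with STAR 2.6.1b to GRCm38, per the submitters' processing notes. The deposited tables hold raw gene counts by the authors, as STAR writes them per library, with an unstranded and 2 stranded columns per the file layout. For counting options and the gene annotation, nothing is stated in those notes or the labels. The sense column held 49.8% to 49.9% of stranded counts, so the unstranded column was used. Summary lines were left out: reads outside genes made 20.7% to 30.2%, multimapping 5.90% to 7.29%, ambiguous 3.22% to 3.81% and unmapped reads 4.90% to 5.52%. Of 55401 identifiers, 55141 matched GENCODE M21 without their version. CPM, RPKM (per kilobase of exon) and log2 changes were computed here. edgeR 4.0.16 (R 4.3.3; TMM, filterByExpr, robust quasi-likelihood fit of 4 groups in 12 libraries) tested 16426 genes, with Benjamini-Hochberg adjustment over all of them and a threshold of 0.05. DESeq2 1.42.0, other scalings, no filter, a fit without robust shrinkage, a replicate block, only the groups compared, a 1.5-fold minimum and each library left out were alternatives. The fit was tested on simulated data. Replicates of a group differed beyond sampling noise. The main fit did not pair libraries by number. Same-numbered libraries deviated together weakly or not at all (correlations -0.0884 to 0.102), which cannot show whether they shared an animal or batch. Values per library were given for a fixed set of members and for the 4 with the largest changes in each role, and at most 3 examples per further list. Members and lists were chosen with earlier results of these data known. Results for some further genes of these lists are not reported here.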

Additional observations from a re-analysis of the deposited data

Results flagged for a closer look

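For Hsd17b7 and Elovl6, effector and tumour cells were called in opposite directions against naive cells, and the direct contrasts between them were tested. Hsd17b7 was higher than in effector cells at day 14 (log2 change 2.41) and at day 4 (log2 change 2.18). Elovl6 was lower than in effector cells at day 14 (log2 change -2.91) and at day 4 (log2 change -2.44). The direct contrasts of both genes were called by edgeR without each library in turn, whereas the fall of Hsd17b7 in effector against naive cells was not.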

How the results depend on the processing

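Over 118 calls of a member in a contrast and 20 alternatives each, 2209 of 2360 recomputed values kept direction and call, 151 were no longer called and 0 reversed. Counts of members that moved by over 1.5 times were those of small contrasts. For effector against naive cells, 4 were higher and 5 lower with total counts as scaling, and 5 were lower by DESeq2. Leaving out 1 library in turn gave 3 to 7 higher and 1 to 4 lower. For day 14 against day 4, 5 were lower without a filter on low counts and 5 lower with 0 higher when only these groups were fitted. DESeq2 called 2 higher, and 0 were higher past 1.5-fold. Without both libraries of the highest melanoma sum, an alternative chosen after seeing the data, 0 were higher and 1 lower. Leaving out 1 library in turn gave 0 to 1 higher and 1 to 4 lower. For day 4 against effector, it gave 2 to 5 lower. With the replicate number as a block, higher and lower counts were 6 and 2 for effector, 22 and 6 for day 4 and 22 and 4 for day 14 against naive, 19 and 4 for day 4 and 19 and 5 for day 14 against effector, and 1 and 3 for day 14 against day 4. Of 18 same-numbered pairs, 1 correlated over 0.1. The cause of these shifts was not tested. Members at few counts, such as Fdps and Fads2, are limited by depth, and Fdps also by the exon bases it shares with Gm43738.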
